A study of Mus musculus with 4 samples.

Results

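The replication-dependent histone genes are the 67 protein-coding genes of the GENCODE M21 annotation whose symbol begins with Hist1h, Hist2h, Hist3h or Hist4h, out of 21951 protein-coding genes in all. They were chosen by symbol alone, and no measured value entered the choice. They were examined in 4 PRO-seq libraries of mouse E14.5 embryos, with 2 liver and 2 yolk sac libraries, each made from the tissue of 6 pooled embryos. PRO-seq is a nuclear run-on assay that maps the RNA polymerases engaged in transcription, and here the run-on was done on isolated chromatin. All 4 libraries came from the same kind of cross, of C57BL/6J mothers with fathers of mixed C57BL/6J and CAST/EiJ background (spelled C57BL/6h in the sample labels) that carried only CAST/EiJ variants at Dlk1/Gtl2 on chromosome 12. The deposited values are lists of dREG peaks, intervals that a classifier marked as transcription start regions, with a score that has no unit. A gene was called when a peak overlapped the 500 bp either side of any of its annotated starts, and its highest-scoring such peak stood for it. A called gene thus has a detected start region, and an uncalled one has none above the score limit of the lists. Neither is a measure of transcript level.

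These genes encode the 5 histone classes of the nucleosome. H2A, H2B, H3 and H4 form the protein core around which DNA is wrapped, and H1 binds the linker DNA between cores. Replication-dependent histone genes are transcribed mainly while DNA is being copied, are mostly without introns, lie in clusters, and give messenger RNAs that end in a stem loop in place of a poly(A) tail. Npat, a substrate of the cyclin E kinase Cdk2, brings their promoters under control of the cell cycle. The fetal liver at this stage is the main site of red cell production, and the yolk sac is an extraembryonic membrane of endoderm, mesoderm and blood.

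The set held 54 genes of the Hist1 cluster on chromosome 13, 10 of Hist2 on chromosome 3, 2 of Hist3 on chromosome 11 and 1 of Hist4 on chromosome 6. By class there were 6 H1, 18 H2A, 18 H2B, 12 H3 and 13 H4 genes. The Hist1 genes fell into 2 blocks more than 200 kb apart. The first Hist1 block held 23 genes (chr13:21715763-22043676) and the second held 31 (chr13:23531050-23934851). In the annotation, 62 of the 67 genes had 1 exon in every transcript.

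The promoters below come from RefSeq on build GRCm38.p6, which matched 62 of the 67 genes. They are written 5′ to 3′ with motif matches on either strand in capitals. The motifs searched were CCAAT, the box bound by NF-Y, TATAAA, the element bound by the general factor TBP, ATTTGCAT, the octamer bound by the Pou2f1 protein, TTCCCGC and TTTGGCGC, 2 E2F-like elements, and GGTCCG, part of an H4 promoter element recognised by Hinfp. Matches on the opposite strand appear as the reverse complement, and distances run from the start to the first base of the match as printed. The first pair of sequences are the stretches between the starts of 2 H2A and H2B genes that point away from each other, shown because the 9 pairs of this kind that were called shared 1 peak in every library. The upper one is the closest such pair and lies in the peak that held the most histone genes, and the lower one is the pair with the highest score rank of its classes.
Hist1h2ae-Hist1h2bg (chr13:23571221-23571399, plus strand): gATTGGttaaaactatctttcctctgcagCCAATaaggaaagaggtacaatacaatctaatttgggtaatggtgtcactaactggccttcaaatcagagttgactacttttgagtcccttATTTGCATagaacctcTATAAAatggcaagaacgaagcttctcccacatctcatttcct
Hist2h2ac-Hist2h2be (chr3:96220881-96221118, minus strand): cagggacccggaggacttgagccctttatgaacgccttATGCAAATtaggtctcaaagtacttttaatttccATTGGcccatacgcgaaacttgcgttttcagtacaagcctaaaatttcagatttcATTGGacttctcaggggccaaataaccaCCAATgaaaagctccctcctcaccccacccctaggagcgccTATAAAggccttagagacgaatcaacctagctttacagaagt
The next 3 are the 150 bases before the starts of the H1, H3 and H4 genes with the highest mean score rank.
Hist1h1e (chr13:23622559-23622708, minus strand): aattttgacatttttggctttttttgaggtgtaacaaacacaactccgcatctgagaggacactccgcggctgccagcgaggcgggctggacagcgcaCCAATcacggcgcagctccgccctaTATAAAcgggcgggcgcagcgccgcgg
Hist1h3e (chr13:23562386-23562535, minus strand): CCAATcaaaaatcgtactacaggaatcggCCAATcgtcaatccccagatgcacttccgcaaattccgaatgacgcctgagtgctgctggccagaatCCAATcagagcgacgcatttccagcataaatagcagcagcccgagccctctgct
Hist1h4c (chr13:23698459-23698608, minus strand): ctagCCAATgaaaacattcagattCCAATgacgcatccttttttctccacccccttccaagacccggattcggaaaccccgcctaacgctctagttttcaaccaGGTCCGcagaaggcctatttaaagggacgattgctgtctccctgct
The last 3 are the same stretch at the genes with a start region in the liver lists alone.
Hist3h2ba (chr11:58948761-58948910, plus strand): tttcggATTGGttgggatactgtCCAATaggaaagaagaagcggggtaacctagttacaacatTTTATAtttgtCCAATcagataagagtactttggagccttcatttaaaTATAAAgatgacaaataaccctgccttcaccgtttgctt
Hist1h3d (chr13:23575613-23575762, plus strand): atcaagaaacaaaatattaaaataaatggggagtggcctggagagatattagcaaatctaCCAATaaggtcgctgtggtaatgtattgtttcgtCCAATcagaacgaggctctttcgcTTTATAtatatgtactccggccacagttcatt
Hist2h3c2 (chr3:96239128-96239277, minus strand): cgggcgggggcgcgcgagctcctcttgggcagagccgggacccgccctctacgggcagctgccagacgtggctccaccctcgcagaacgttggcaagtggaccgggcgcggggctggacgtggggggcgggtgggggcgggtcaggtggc
The Hist1h2bg sequence had the octamer 59 bases and TATAAA 43 bases before the Hist1h2bg start, and a CCAAT box on each strand nearer to Hist1h2ae. The Hist2h2ac stretch carried TATAAA 42 bases before the Hist2h2ac start, 3 CCAAT boxes, and an octamer on the opposite strand 200 bases away, on the side of Hist2h2be. Hist1h1e had CCAAT and TATAAA 52 and 27 bases before its start, and Hist1h3e had 3 CCAAT boxes and no TATAAA. Hist1h4c had GGTCCG 46 bases before its start. Hist2h3c2 had no match in this stretch.

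Over the 250 bases before each RefSeq start, motif matches followed histone class. CCAAT was found at 51 of the 62 matched genes (82.3%), against 33.8% of all 32817 RefSeq promoters of the same length. All 6 H1, all 18 H2A and all 16 matched H2B genes had it, as did 8 of 10 H3 genes, but only 3 of 12 H4 genes. At 43 genes there were at least 2 copies, against 10.1% of all promoters. The octamer occurred at 7 H2A and 6 H2B genes and at no gene of another class, 21.0% of the set against 1.60% of all promoters. GGTCCG occurred at 11 genes, 9 of them among the 12 H4 genes (17.7% against 6.72%), and TTCCCGC at 5 genes, all H4 (8.06% against 3.82%). TATAAA was present at 29 genes (46.8% against 12.4%), and 12 had it on the sense strand 20 to 40 bases before the start, against 1.996% of all promoters. TTTGGCGC was found at none (0.417% of all promoters). H2A and H2B genes of a divergent pair share their upstream sequence and so can be counted for the same match. A match describes the sequence and does not show binding.

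Most histone genes had a start region in both tissues. Of the 67 genes, 56 were called in liver replicate 1, where 56.1% of all protein-coding genes were called, and 56 in liver replicate 2, where 57.9% were. In yolk sac 54 were called in replicate 1 (63.8% of all genes) and 53 in replicate 2 (62.4% of all genes). The liver mean of 56 ± 0 and the yolk sac mean of 53.5 ± 0.707 (SD, n = 2) gave a difference, yolk sac minus liver, of -2.5 genes with no overlap (two-sided exact permutation p = 0.333, adjusted p = 0.5 over 6 comparisons between the tissues). With a window of 250 bp the difference was -5 genes. With 2 libraries a tissue 0.333 is the smallest p possible, so none of the 6 could pass a threshold, and each difference is set against the spread between replicates. The labels do not say whether replicates are separate pools of embryos, and the spread may be technical.

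In all 4 libraries 53 genes were called, 79.1% of the set against 53.8% of all protein-coding genes. Liver-only calls, made in each liver list and absent from the yolk sac lists, were found at 3 genes (4.48% against 1.01%). There was no yolk-sac-only histone gene, against 5.25% of all genes. In no library was a peak called at 10 genes (14.9% against 34.2%), and 1 gene had another pattern (1.49% against 5.73%). With every list limited to its 24333 highest-scoring peaks, the length of the shortest list, 34 and 34 histone genes were called in yolk sac (50.7% each), against 53.2% and 56.6% of all protein-coding genes. The number called in all 4 libraries then went from 53 to 30 (44.8%), while that of all protein-coding genes went from 11805 to 10256 (46.7%). Liver-only calls then numbered 18 histone genes (26.9%), against 3.01% of all genes. By class, with the full lists, 4 of 6 H1, 15 of 18 H2A, 14 of 18 H2B, 9 of 12 H3 and 11 of 13 H4 genes were called in all 4 libraries.

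**Figure D1:**
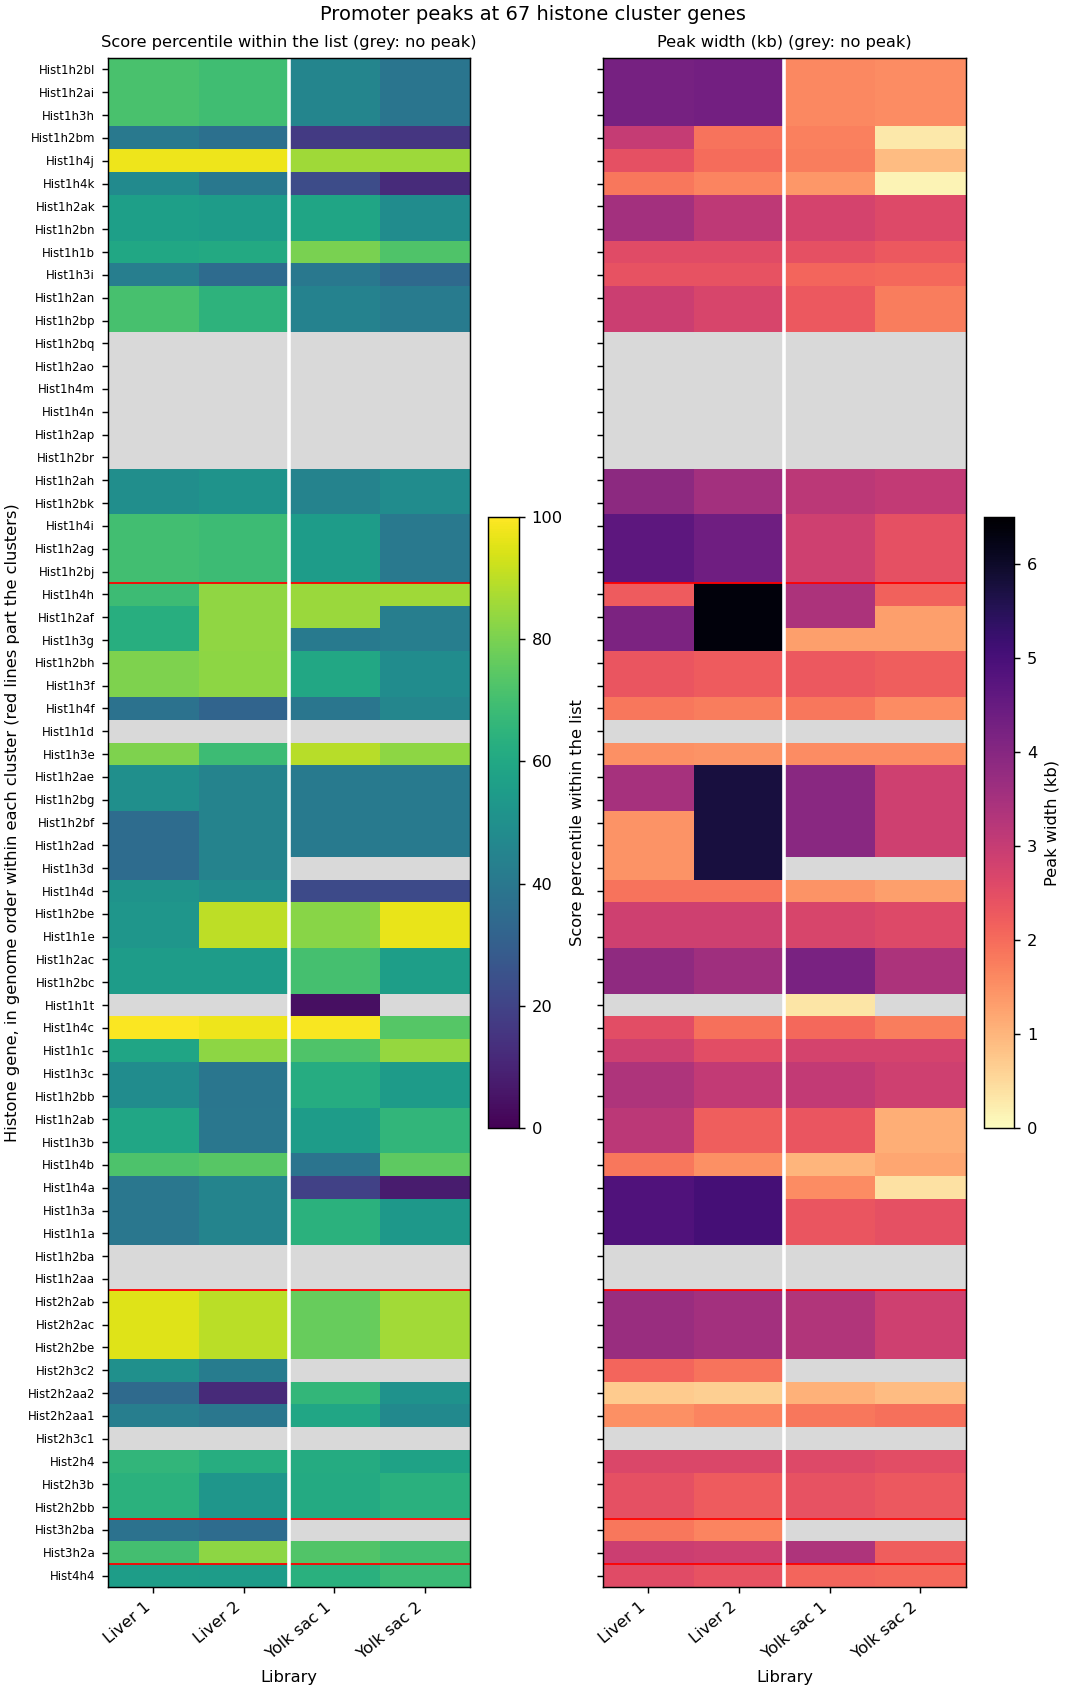
Each line is 1 of the 67 histone genes in genome order, and each column is 1 of the 4 libraries. Colour gives the score percentile of the gene's promoter peak within its own list (left) and the peak width in kb (right), grey marks no peak, and neighbours with the same colours share a peak. Grey runs through all columns at 10 genes, and the dark purple widths of the first Hist1 block are found in the liver columns.

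The liver-only genes were Hist3h2ba, Hist1h3d and Hist2h3c2, an H2B gene and 2 H3 genes. Hist3h2ba lies next to Hist3h2a on chromosome 11. Its liver peaks were 1852 and 1652 bp wide and stood at score percentiles of 37.9 and 35.5 in their lists. No yolk sac peak lay within 1000 bp of its start either. Hist3h2a, an H2A gene, was called in all 4 libraries, at percentiles of 69.9 and 83.0 in liver and 73.0 and 69.8 in yolk sac, with widths of 2902, 2852, 3352 and 2202 bp. Those values overlapped between the tissues. Ranked among the genes called in all 4 libraries, Hist3h2a stood higher in liver, at 52.1 and 73.7 against 50.4 and 42.7.

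Hist1h3d was called through peaks that it shared with its neighbours. In liver replicate 1 this was a peak of 1452 bp at percentile 35.2, and in liver replicate 2 one of 5752 bp at percentile 44.8. Overlapping the gene downstream of its start, each list also had a separate peak, 1202 and 1002 bp wide in liver and 302 and 402 bp wide in yolk sac. With a window of 1000 bp in place of 500 bp Hist1h3d was no longer liver-only. Hist2h3c2 had liver peaks of 2102 and 1902 bp at percentiles 50.1 and 42.0. In both yolk sac lists a peak of 1102 bp (chr3:96237051-96238152) lay further than 500 bp from its start, and with a window of 1000 bp Hist2h3c2 was called in all 4 libraries.

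Of the 10 uncalled genes, 6 form a mirrored repeat in the first Hist1 block: Hist1h2bq, Hist1h2ao and Hist1h4m on one side and Hist1h4n, Hist1h2ap and Hist1h2br on the other (chr13:21806612-21837530). Their sequences are nearly the same. The RefSeq promoters of Hist1h2bq and Hist1h2br were identical over all 300 bases, those of Hist1h4m and Hist1h4n over 298 of 299 aligned bases, and those of Hist1h2ao and Hist1h2ap over 200 of 200. Between 87.8% and 98.3% of the 30-base words in their transcripts occurred in another histone gene. Reads from identical stretches have no unique place in the genome. How the authors' alignment treated such reads is not given in the sources used here, so the missing peaks do not show that these genes were silent. A peak was called in all 4 libraries between the sides of the repeat, away from these starts (chr13:21829751-21830902 in liver replicate 1). It stood at percentiles 92.8 and 82.3 in liver and 45.2 and 46.5 in yolk sac, and no annotated protein-coding start lay near it.

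Hist2h3c1 was also uncalled, and its promoter matched that of Hist2h3c2 at 284 of 285 aligned bases. In liver, peaks of 1802 and 1902 bp overlapped Hist2h3c1 further than 500 bp downstream of its start (chr3:96247301-96249102 in replicate 1). No yolk sac peak lay within 1000 bp of that start, so with a window of 1000 bp Hist2h3c1 was liver-only. Hist1h1d, a linker histone gene, was uncalled only at its GENCODE start. The RefSeq start lies 1770 bp downstream, and a peak of 2202, 2152, 2252 and 2102 bp covered it in liver replicates 1 and 2 and yolk sac replicates 1 and 2. With RefSeq starts, 54 histone genes were called in all 4 libraries and 9 in none. The remaining 2 uncalled genes, Hist1h2ba and Hist1h2aa, are a divergent pair at the far end of the second block and are known from testis. Hist1h1t, the testis linker histone, was called in yolk sac replicate 1 alone, by a peak of 352 bp at percentile 4.17 that did not reach within 250 bp of its start. None of these 3 testis genes was called in liver.

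Peaks at histone genes were broad. Over the distinct peaks of a library, the median width was 2552 and 2402 bp in liver and 2302 and 2052 bp in yolk sac. All protein-coding promoters had medians of 1652 and 1452 bp in liver and 1652 and 1502 bp in yolk sac. The histone means were 2477 ± 106 bp in liver and 2177 ± 177 bp in yolk sac (SD, n = 2). Yolk sac minus liver was -300 bp, with no overlap between tissues (two-sided exact permutation p = 0.333, adjusted p = 0.5). With lists of 24333 peaks the difference was -150 bp and the values overlapped (p = 0.667 by the same exact test). The peaks at histone genes covered 96.2 and 90.3 kb in liver and 76.9 and 64.2 kb in yolk sac. Widths above the median of all promoters were not particular to these genes. In liver replicates 1 and 2 and yolk sac replicates 1 and 2, replication-independent histone variant genes had medians of 2352, 1852, 2202 and 1952 bp. Factors for histone gene expression had 2252, 2002, 1977 and 1702 bp, and histone chaperone and assembly genes 2127, 1952, 2102 and 1827 bp.

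Gene by gene, the liver peak was more often the wider one. Among the 53 genes called in all 4 libraries, 31 had a wider peak in each liver library than in either yolk sac library (58.5%), against 20.9% of the 11805 protein-coding genes called in all 4. The reverse held for 3 histone genes (5.66%), against 34.5% of all genes. The median ratio of mean liver width to mean yolk sac width was 1.20 for the histone genes and 0.966 for all genes. Neighbours share peaks, so the 31 genes lie on fewer than 31 peaks and are not independent of each other. With lists of 24333 peaks 13 of 30 genes were wider in liver (43.3%, against 20.2% of all genes). Of the genes with under 50% of their 30-base words in another histone gene, 12 of 21 were wider in liver (57.1%).

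In the first Hist1 block all 17 of its called genes, which lay on 10 peaks in each liver library, had wider peaks in both liver libraries, with a median ratio of 1.68. Only 3 of the 17 had under 50% of their 30-base words in another histone gene, and these 3 were wider in liver. Reads at the others may not be told apart from those of copies. With lists of 24333 peaks 4 genes of the block were left to compare, all 4 wider in liver. Hist1h2bl, Hist1h2ai and Hist1h3h, a trio of H2B, H2A and H3 genes, shared 1 peak of 4252 and 4302 bp in liver, and 1 of 1602 and 1552 bp in yolk sac. Hist1h4i, Hist1h2ag and Hist1h2bj shared 1 peak of 4652 and 4352 bp in liver and of 2852 and 2452 bp in yolk sac. Hist1h4k, an H4 gene, had peaks of 1852 and 1652 bp in liver and of 1402 and 152 bp in yolk sac. At each of these genes every liver width was above every yolk sac width. In the second block 9 of 26 genes were wider in liver and 1 in yolk sac (Hist1h3e), with a median ratio of 1.13. In Hist2 4 of 8 were wider in liver and 2 in yolk sac, with a median ratio of 1.02. The difference between the blocks was not tested.

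**Figure D2:**
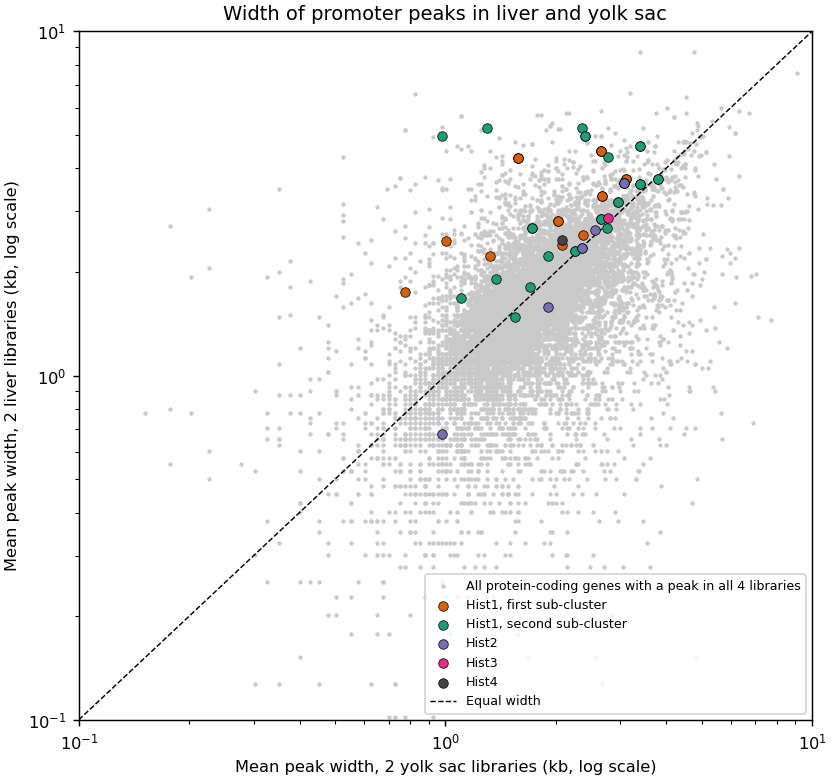
Mean peak width in the 2 liver libraries (vertical axis, kb, log scale) against that in the 2 yolk sac libraries (horizontal axis, kb, log scale) for the genes called in all 4 libraries. Small grey points are all 11805 such protein-coding genes and large points the 53 histone genes by cluster, several of which lie on top of each other because they share a peak. All 17 genes of the first Hist1 block lie above the dashed line of equal width.

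By class, wider liver peaks were found at 3 of 4 H1, 8 of 15 H2A, 8 of 14 H2B, 4 of 9 H3 and 8 of 11 H4 genes called in all 4 libraries. The median ratio was 1.07 for H1, 1.20 for H2A, 1.19 for H2B, 1.16 for H3 and 1.52 for H4. Hist1h4a had the largest ratio, 5.07. In liver it shared peaks of 4852 and 5052 bp with the H3 gene Hist1h3a and the H1 gene Hist1h1a. In yolk sac it had a peak of its own of 1552 and 402 bp, next to peaks of 2352 and 2452 bp at the other genes. Hist2h2aa2 and Hist2h2aa1, 2 copies of an H2A gene, were wider in yolk sac, at 1052 and 902 bp against 702 and 652 bp for Hist2h2aa2. Their promoters were 97.3% identical, so reads at either copy are uncertain.

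Peaks shared by several histone genes were wider than those at 1, and a wider peak can reach more genes. Peaks with 1 histone gene had median widths of 2252 and 1902 bp in liver and 1802 and 1552 bp in yolk sac. Those shared by several had medians of 3527 and 3552 bp in liver and 2727 and 2452 bp in yolk sac. In both kinds each liver value was above each yolk sac value. Of 41 called genes of at most 1000 bp, the peak covered the whole gene at 36 and 37 in the liver libraries, where 77.3% and 75.5% of all such short genes were covered. In yolk sac it did so at 27 of 41 (65.5% of all) and 21 of 40 (60.4% of all). Those short genes numbered between 97 and 113 in a library and included the histone genes. The annotated start itself lay inside the peak at 51 and 53 of the 56 called genes in liver (96.5% and 96.6% of all called genes) and at 46 of 54 and 41 of 53 in yolk sac (96.8% and 97.2%).

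Sharing of 1 peak by several genes was frequent. A peak was counted as shared when it overlapped the windows of both genes, which close starts favour. In liver 37 and 38 histone genes shared their peak with another histone gene, and in yolk sac 36 and 35 did. The means of 37.5 ± 0.707 and 35.5 ± 0.707 (SD, n = 2) gave a difference of -2 genes (two-sided exact permutation p = 0.333, adjusted p = 0.5), which was -7 with a window of 250 bp and -15 with lists of 24333 peaks. Counting any protein-coding partner, 67.9% and 69.6% of the called histone genes shared a peak in liver, against 22.9% and 22.2% of all called genes. In yolk sac 68.5% and 67.9% did, against 21.2% and 21.4%. The 56 genes called in each liver library lay on 35 and 33 peaks, and the 54 and 53 called in yolk sac on 34 each (exact permutation p = 1, two-sided).

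**Figure D3:**
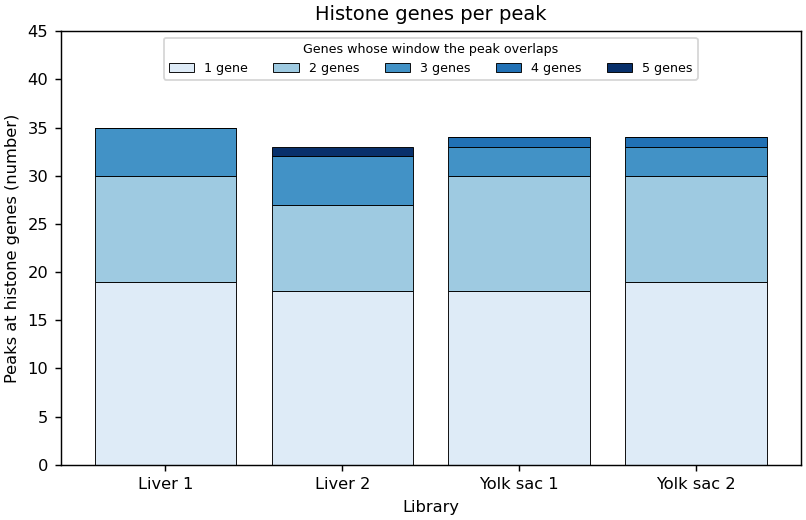
Number of dREG peaks at histone genes in each of the 4 libraries (bars from 0), divided by how many histone gene windows a peak overlapped. Peaks with 1 gene numbered 19, 18, 18 and 19, and the only peak with 5 genes was in liver replicate 2.

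Divergent pairs of an H2A and an H2B gene share the stretch of promoter between them. Among 12 such pairs, with starts 176 to 306 bp apart, 9 had both genes called in all 4 libraries, and each of the 9 shared its peak in all 4. With starts so close the 500 bp windows of a pair overlap. A peak that calls 1 gene will thus mostly call the other, and this sharing follows largely from the window. Both starts lay inside the shared peak in 8, 9, 8 and 8 of the pairs in liver replicates 1 and 2 and yolk sac replicates 1 and 2. The other 3 pairs were the 2 in the mirrored repeat and the testis pair. Of the 22 neighbouring pairs pointing the same way, both genes were called at 19 in each liver library and at 15 in each yolk sac library. A peak was shared by 8 and 9 of the 22 pairs in liver and by 7 and 6 in yolk sac. Sharing in both liver libraries and no yolk sac library was seen at 2 of these, Hist1h2ad with Hist1h3d and Hist1h4a with Hist1h3a, and the reverse at none.

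The shared domain with the most histone genes was at the pair shown first among the sequences. In liver replicate 2 a peak of 5752 bp held Hist1h2ae, Hist1h2bg, Hist1h2bf, Hist1h2ad and Hist1h3d. In yolk sac peaks of 3952 and 2852 bp held the first 4 of these and not Hist1h3d. In liver replicate 1 the domain was divided into peaks of 3502 and 1452 bp. A second domain of this kind joined Hist1h4h, Hist1h2af and Hist1h3g in 1 peak of 6352 bp in liver replicate 2, and was divided in the other 3 libraries. The replicates of liver thus differed in where such domains were joined. The lists had no gap between peaks under 548 bp, and whether nearby calls had been joined before deposit cannot be told from them.

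Score ranks within a list placed the histone promoters below the middle of protein-coding promoters. Over the distinct peaks at called histone genes, the median percentile was 56.6 and 55.2 in liver and 59.6 and 53.5 in yolk sac. Counted by gene it was 57.7 and 55.2 in liver and 59.1 and 48.8 in yolk sac. All called protein-coding genes had medians of 67.5, 66.8, 71.8 and 72.1. Because the lists differ in length, tissues were compared by the rank among the 11805 genes called in all 4 libraries, which has a median of 50 in every library. On this scale the histone medians, counted by gene, were 34.6 and 28.8 in liver and 23.0 and 9.12 in yolk sac. Tissue means of 31.7 ± 4.11 and 16.1 ± 9.84 (SD, n = 2) gave a difference, yolk sac minus liver, of -15.7 percentile points with no overlap (two-sided exact permutation p = 0.333, adjusted p = 0.5). With lists of 24333 peaks the difference was -5.11 points. It turned to 8.10 points, higher in yolk sac, in the higher-scoring 50% of each list, and to 0.73 points among the genes with under 50% of their 30-base words in another histone gene. In the first of these settings the medians were 24.0 and 62.2 in liver and 50.5 and 51.9 in yolk sac. In the second they were 34.3 and 39.95 in liver and 45.4 and 30.3 in yolk sac, so the tissues overlapped in both.

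Of the 53 genes, 31 ranked higher in each liver library than in either yolk sac library (58.5%), against 30.9% of all genes, and 4 ranked higher in yolk sac (7.55%), against 25.7%. In the first Hist1 block 16 of 17 ranked higher in liver. Its medians were 51.9 and 43.5 in liver and 4.99 and 3.35 in yolk sac, which are levels of score rank and not of transcription. Of the 3 genes of this block with under 50% of their 30-base words in another histone gene, 2 ranked higher in liver. With lists of 24333 peaks 3 of the 4 genes of the block left to compare did. In the second block 10 of 26 ranked higher in liver, and the medians of 26.6, 24.0, 26.1 and 15.3 overlapped between tissues. The exception in the first block was the linker histone gene Hist1h1b, at 35.1 and 37.4 in liver and 64.4 and 48.4 in yolk sac. With lists of 24333 peaks 10 of 30 genes ranked higher in liver (33.3%, against 30% of all genes), close to that background. Over the whole set, 10 of 21 genes with under 50% of their 30-base words in another histone gene ranked higher in liver (47.6%, against 30.9% of all genes).

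**Figure D4:**
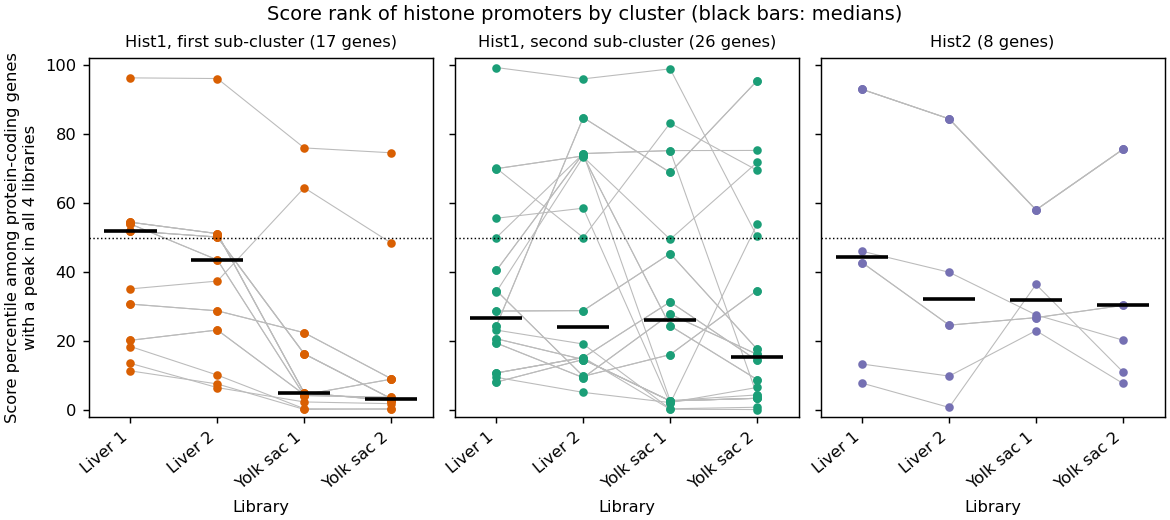
Rank of each histone gene's peak score among the 11805 protein-coding genes called in all 4 libraries (vertical axis, percentile) in each library, for the first Hist1 block (17 genes), the second block (26 genes) and Hist2 (8 genes). Grey lines join 1 gene, black bars are medians, and the dotted line is the median of all genes. In the first block the medians are 51.9 and 43.5 in liver and 4.99 and 3.35 in yolk sac.

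Within each class the score ranks spanned a wide range, given here as percentiles within each whole list. Among H4 genes Hist1h4c stood highest, at 99.4 and 97.4 in liver and 99.2 and 73.6 in yolk sac. Only the value of yolk sac replicate 2 stood apart from the other 3. Hist1h4j of the first block followed, at 97.3 and 97.5 in liver and 85.6 and 85.4 in yolk sac, with no overlap between tissues. Hist1h4a was lowest, at 39.6 and 45.3 in liver and 19.1 and 7.76 in yolk sac. Among H3 genes Hist1h3e was highest, at 80.6 and 68.7 in liver and 89.4 and 82.9 in yolk sac, and Hist1h3i was lowest, at 43.0, 35.1, 40.03 and 34.1.

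For the H2A and H2B classes the highest rank belonged to 1 shared peak, that of Hist2h2ab, Hist2h2ac and Hist2h2be. It stood at 95.04 and 89.8 in liver and 76.7 and 86.0 in yolk sac, and was 3702, 3552, 3302 and 2852 bp wide. On both measures each liver value was above each yolk sac value, and the same was true of its rank in the set of genes called in all 4 libraries. Hist1h2ad was the lowest of the H2A genes, at 35.2, 44.8, 41.2 and 40.8. Among the genes called in all 4 libraries it ranked higher in liver, at 8.12 and 14.7 against 2.68 and 3.43. Hist1h2bm was the lowest of the H2B genes, at 40.4 and 36.8 in liver and 16.9 and 16.0 in yolk sac. In yolk sac replicate 2 its highest-scoring peak was 302 bp wide, and a separate peak of 852 bp at percentile 6.27 also overlapped its window. Hist1h2ae and Hist1h2bg, which shared their peak in every library, had the widest mean peak, 4014.5 bp, and Hist2h2aa2 the narrowest, 827 bp.

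None of the 4 linker histone (H1) genes called throughout ranked higher in both liver libraries among the genes called in all 4. Hist1h1e shared its peak with the H2B gene Hist1h2be and stood at 52.4 and 90.0 in liver and 82.0 and 96.9 in yolk sac. Hist1h2be also has a RefSeq start far from this peak, which other peaks covered (given below). Hist1h1c stood at 58.9 and 82.8 in liver and 72.6 and 84.1 in yolk sac. Hist1h1a was the lowest, at 39.6 and 45.3 in liver and 63.7 and 53.5 in yolk sac. Among the genes called in all 4 libraries its ranks overlapped, at 10.8 and 15.2 in liver and 31.4 and 14.4 in yolk sac. For Hist1h1e and Hist1h1c the gap between the liver replicates was larger than the gap between the tissue means.

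Outside Hist1, Hist2h4, an H4 gene, had percentiles of 66.0, 62.3, 61.6 and 57.6 in liver replicates 1 and 2 and yolk sac replicates 1 and 2, and widths of 2652, 2652, 2602 and 2502 bp. Hist2h3b and Hist2h2bb, an H3 and an H2B gene with 1 common peak, had 64.1, 52.4, 61.2 and 63.6. Hist2h2aa2 ranked higher in yolk sac, at 34.4 and 11.9 in liver against 66.2 and 50.8, and its copy Hist2h2aa1 had 42.7, 39.7, 59.3 and 47.4. Among the genes called in all 4 libraries Hist2h2aa1 overlapped between tissues, at 13.4 and 9.86 in liver and 23.0 and 7.76 in yolk sac. Hist4h4, the lone gene on chromosome 6, had 55.7, 55.1, 63.5 and 68.1, with widths of 2552 and 2402 bp in liver and 2102 and 2052 bp in yolk sac.

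The clusters also held peaks further than 500 bp from any GENCODE start of a histone gene. They include the peak at the RefSeq start of Hist1h1d and the one over Hist1h3d described above. Another covered a RefSeq start of Hist1h2be that lies 35108 bp from the nearest GENCODE start of that gene. It was 3152 and 3002 bp wide in liver and 2852 and 2752 bp wide in yolk sac, at percentiles 70.2, 70.9, 85.1 and 78.8. Liver had 34 and 30 such peaks away from GENCODE histone starts and yolk sac 35 and 28, with means of 32 ± 2.83 and 31.5 ± 4.95 (SD, n = 2; two-sided exact permutation p = 1). The difference of -0.5 peaks changed sign when liver replicate 1 or yolk sac replicate 2 was left out. With RefSeq starts the counts were 32, 28, 33 and 26.

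Genes that act on histone genes or replace their products were called almost throughout. Of 20 factors for the expression of replication-dependent histone genes, 19 were called in all 4 libraries, among them Npat and Slbp, which binds the stem loop. Of all protein-coding genes 53.8% were called in all 4. Lsm11, part of the U7 particle that helps cut histone messenger RNA, lacked a peak in liver replicate 1 alone. Of these 19 genes, 9 were wider in both liver libraries and 3 in both yolk sac libraries, where 20.9% and 34.5% of all genes called in all 4 were. All 11 replication-independent histone variant genes and all 14 histone chaperone and assembly genes were called in all 4 libraries. Wider liver peaks were found at 5 of the 11 and 3 of the 14, and wider yolk sac peaks at 4 and 1. Of the 11 variant genes 7 ranked higher in both liver libraries and 2 in both yolk sac libraries, against 30.9% and 25.7% of all genes. By this count the other lists stood nearer to those shares. Of the 19 expression factors 5 ranked higher in liver and 4 in yolk sac, and of the 14 chaperone and assembly genes 5 and 3 did. The median over genes of the rank difference, yolk sac minus liver, was -14.0 points for the cluster genes and -1.95 for all genes called in all 4. It was as low or lower for variant genes (-17.5) and chaperone and assembly genes (-17.4), but not for expression factors (-2.12). H2afx, whose protein marks DNA breaks, stood at percentiles 93.6 and 95.3 in liver and 4.09 and 3.77 in yolk sac among the genes called in all 4 libraries. The reverse order held at Cenpa, the histone H3 variant of centromeres, with 45.1 and 17.0 in liver and 83.7 and 94.97 in yolk sac, and at the macroH2A gene H2afy2, with 52.8 and 25.4 in liver and 72.7 and 78.9 in yolk sac. These lists were chosen with results of these data known.

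Calls at marker genes of several cell types also differed between the tissues. Of 8 erythroid marker genes 7 were liver-only, including Gata1, Klf1 and Alas2, and Epor was called in all 4 libraries. Of 7 hepatic markers Alb and Hnf4a were called in all 4, Cps1 and C3 were liver-only, Fgb was yolk-sac-only, Serpina1a was uncalled, and Afp lacked a peak in liver replicate 2. Of 6 yolk sac endoderm markers Amn and Cubn were yolk-sac-only, and of 6 mesenchyme markers Hand1 was, and no marker of either list was liver-only. The other 9 of these 12 markers had a liver call as well as calls in both yolk sac lists. Dab2, Sox17, Col1a1, Col1a2 and Twist1 were called in all 4 libraries, Lrp2 and Apoa4 lacked a peak in liver replicate 2, and Pdgfra and Dcn lacked one in liver replicate 1. Cell makeup itself was not measured, and whether it has a part in the wider liver peaks at histone genes was not tested. In whole tissue, fewer cells transcribing a gene and less transcription in each cell cannot be told apart. The liver lists were 24863 and 24333 peaks long, those of yolk sac 50525 and 43055, and the number of reads behind each is unknown.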

How the data were processed

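Each library has 1 list of peaks, and the scores are the authors' deposited dREG scores, without a unit, between 0.80 and 1.45. The submitters' processing notes name Bowtie2, bedtools and build mm10, with no role or version. The dREG version, the filters and the read depth are not given in the sources used here. Because lists differ in length, scores were ranked within a list, or among the genes called in all 4 lists.

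Starts came from GENCODE M21, on the same build. Windows, patterns, widths and ranks were computed in Python (version 3.11.15) using pandas 2.3.3, numpy 2.4.6, scipy 1.17.1 and, for figures, matplotlib 3.10.9. The pattern calls were tested on simulated lists, and 200 of 200 planted genes were recovered. The planted genes lay far apart, each with its own peak, so that check did not cover close starts or shared peaks. Tissues were compared by two-sided exact permutation tests over the 6 assignments of 4 libraries, with Benjamini-Hochberg adjustment over 6 comparisons.

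Motifs were searched in RefSeq promoters, and copies were judged from transcripts and promoters, since a genome sequence was not used here. Named by rule were all genes with differing or missing calls, all genes outside Hist1, the highest and lowest score rank of each class, and the widest, narrowest and most shared peaks. Hist1h4j, Hist1h4k, Hist1h1b, Hist1h1c, Hist1h4i, Hist1h2bl and their peak partners, and the named genes of other lists, were picked after their values were seen. The genes, lists and tests were chosen with earlier results of these data known. The alternatives were other windows, starts, score limits and peak choices, the omission of single libraries, and a replicate block.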

Additional observations from a re-analysis of the deposited data

How the results depend on the processing

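Differences are yolk sac minus liver throughout. With a window of 250 bp the difference in called genes was -5 and that in genes sharing a peak -7. In the higher-scoring 50% of each list these were -6 and -6, the difference in distinct peaks -2, that in median rank 8.10 (reversed) and that in peaks away from histone starts 7 (reversed). That setting left 18 genes called in all 4 libraries, 6 liver-only, 5 yolk-sac-only and 22 uncalled, or 26.9%, 8.96%, 7.46% and 32.8% of the set, against 34.7%, 1.32%, 8.84% and 40.5% of all protein-coding genes. Liver ranked higher at 27.8% of the genes, against 26.1% of all, and at 50% of the first Hist1 block, where only 2 genes remained to compare. With every list limited to 24333 peaks the differences were -22 called genes, -150 bp in width, -5.11 in rank, -12 distinct peaks, -15 genes sharing a peak and -12.5 peaks away from starts. There 30 genes were called in all 4 libraries, 18 were liver-only, and liver ranked higher at 33.3%, against 30% of all genes. Ranked among all peaks of a list, the rank difference was -2.52. Among genes with under 50% of their 30-base words in another histone gene, an alternative chosen after seeing the data that holds fewer genes by construction, the differences were -1.5 called genes, -3 genes sharing a peak and 0.73 in rank (reversed), with 21 genes called in all 4 libraries and 4 in none. For changes in the higher-scoring 50% and 24333-peak lists, and for the ranks, the cause was not tested.

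Leaving out 1 library at a time gave ranges of -3 to -2 called genes, -425 to -175 bp in width, -22.5 to -8.48 in rank and -2.5 to -1.5 genes sharing a peak. Peaks away from starts ranged from -4 to 3, distinct peaks from -1 to 1, and yolk-sac-only genes from 0 to 1 (Hist1h1t without yolk sac replicate 2). Deviations from the tissue means correlated at -0.0123 between libraries of the same replicate number. With 2 libraries a tissue this is a single value, whose sign alone turns for libraries of unlike number. It cannot settle whether the samples were paired. A fit with the replicate block left the differences as they were, such as -300 bp in width, with a smallest possible p of 0.5. The limits are the 2 libraries a tissue, lists of unequal length, an unknown read depth, and copies that reads cannot tell apart.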
